A study of Mus musculus with 12 samples.

Results

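The blood-brain barrier is built by the endothelial cells that line brain capillaries. The 9 genes described here encode parts of it or mark endothelium in general: Cldn5, Ocln and Tjp1 of the tight junction, Cdh5 and Pecam1 of the contacts between endothelial cells, Mfsd2a and Plvap, which bear on transport through the cell, and the efflux pumps Abcb1a and Abcg2. They were chosen by name, as the rows of the deposited count table that carry these gene symbols, and are 9 of its 39756 genes. Brain endothelium differs from that of other organs in that tight junctions seal the space between cells, few vesicles cross the cell, and pumps return lipid-soluble compounds to the blood. Wnt signals from neural cells keep this state. After stroke the barrier opens, and endothelium takes on an activated state in which it recruits leukocytes and sprouts.

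Ischemic hemispheres of 12 male C57BL/6J mice aged 9 to 10 weeks were sequenced, with 4 mice per group (Sham, Vehicle and LJP). In Vehicle and LJP mice a filament closed the middle cerebral artery for 45 min, after which blood flow was restored (tMCAO, transient occlusion). The LJP mice were given a polysaccharide of the brown alga Laminaria japonica into the stomach each day for 14 days before surgery and afterwards, and the Sham and Vehicle mice were given saline on the same schedule. Sham mice had sham surgery without occlusion, and all 12 mice carry the same batch label. The study carried the middle of its tested doses into later experiments. The dose of the sequenced mice themselves, their time after surgery and whether their brains were perfused free of blood are not given in the sources used here. A hemisphere holds infarcted and spared tissue together, and endothelium is a small part of its RNA. In such bulk samples fewer cells of a type and less RNA per cell cannot be told apart.

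Between 17960353 and 22216315 reads were counted on genes in each mouse. Levels are given as CPM, counts scaled to a library size corrected by TMM, which sets most genes of the libraries to a common level. Groups were compared with edgeR's quasi-likelihood test on the counts of 17558 genes in one fit of all 12 mice, and a gene was called changed at a Benjamini-Hochberg adjusted p below 0.05 over all of these genes. All 9 genes had enough counts to be tested. The lowest were Plvap, with 90 to 158 reads in a Sham mouse, and Ocln, with 134 to 161. The p-values rest on the spread between these mice, where the test draws the spread of each gene toward that of all genes.

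The upstream sequence is shown for Cldn5, the tight junction gene that changed most, and for Mfsd2a and Abcb1a, which were not called in any comparison between groups at TMM scaling. Of the 9 genes 6 were matched to upstream sequences from RefSeq on GRCm38.p6, and Pecam1, Cdh5 and Plvap were not matched. Each run below is the 250 bases before the RefSeq start of transcription, 5′ to 3′ on the strand of the gene. For Mfsd2a that start lies inside the gene as the count table places it, so that the end of its run overlaps the gene. Capitals mark matches on either strand to 6 short motifs: the ETS core CCGGAA, the TCF/LEF core CTTTGA, the forkhead core TGTTTA, the CCAAT box, the GC box GGGCGG and the hypoxia response core ACGTG. None of these letters overlap in the 3 runs.
Cldn5, chr16:18776597-18776846, plus strand: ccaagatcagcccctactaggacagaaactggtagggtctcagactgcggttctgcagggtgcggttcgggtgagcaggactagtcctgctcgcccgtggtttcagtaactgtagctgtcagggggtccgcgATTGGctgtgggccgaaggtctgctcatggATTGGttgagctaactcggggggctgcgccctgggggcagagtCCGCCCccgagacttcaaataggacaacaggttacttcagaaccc
Mfsd2a, chr4:122961189-122961438, minus strand: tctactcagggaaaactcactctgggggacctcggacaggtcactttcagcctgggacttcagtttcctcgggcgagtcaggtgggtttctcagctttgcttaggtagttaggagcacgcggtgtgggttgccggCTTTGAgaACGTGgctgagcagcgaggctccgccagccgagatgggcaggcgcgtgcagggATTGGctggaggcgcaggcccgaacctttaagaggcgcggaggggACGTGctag
Abcb1a, chr5:8566841-8567090, plus strand: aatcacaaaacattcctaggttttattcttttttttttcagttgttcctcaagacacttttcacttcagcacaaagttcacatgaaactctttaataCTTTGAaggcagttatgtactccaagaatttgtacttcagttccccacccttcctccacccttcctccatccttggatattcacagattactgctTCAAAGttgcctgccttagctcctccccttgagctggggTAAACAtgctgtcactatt

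The Cldn5 run held 2 CCAAT boxes and 1 GC box, and the Mfsd2a run 1 TCF/LEF core, 1 CCAAT box and 2 hypoxia response cores. The Abcb1a run held 2 TCF/LEF cores and 1 forkhead core. Of all 32851 upstream runs of this length, 33.8% held a CCAAT box, 32.7% a GC box, 16.6% a hypoxia response core, 13.8% a TCF/LEF core, 12% a forkhead core and 12% an ETS core. The G and C content was 59.6% for Cldn5, 61.6% for Mfsd2a and 40.4% for Abcb1a, against a median of 52.4%. These matches describe the letters only, and binding at them was not tested.

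In the Sham group, levels per length (RPKM, CPM per kilobase of the deposited gene length) ranked Cldn5 first at 30.1 ± 2.30 (SD, n = 4), then Tjp1 at 11.9 ± 0.819, Mfsd2a at 9.25 ± 1.20, Abcb1a at 6.69 ± 0.657 and Pecam1 at 5.89 ± 0.549. Below these lay Cdh5 at 4.83 ± 0.138, Abcg2 at 3.84 ± 0.194, Plvap at 3.39 ± 0.675 and Ocln at 1.74 ± 0.0984. The mice of neighbors in this order overlapped for Abcb1a with Pecam1 and for Abcg2 with Plvap, and for no other neighbors. In the Vehicle group Pecam1, at 44.4 ± 41.7 RPKM, and Cdh5, at 36.9 ± 35.7, came after Cldn5, at 120 ± 88.3, and above Tjp1, at 15.2 ± 2.63, and the ranges of every pair of neighbors overlapped. Within each Vehicle mouse Cldn5 was above Pecam1. In Vehicle mouse 3 Pecam1 (9.64 RPKM) and Cdh5 (7.75) lay below Tjp1 (13.9). In the LJP group the order began again with Cldn5 (41.3 ± 9.95 RPKM), Tjp1 (13.2 ± 1.34) and Mfsd2a (10.6 ± 1.41).

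Vehicle was compared with Sham to ask how ischemia and reperfusion moved these genes. The genes of the contacts between endothelial cells and the tight junction gene Cldn5 rose most, Plvap and Abcg2 rose by less, Tjp1 rose slightly, and Ocln, Mfsd2a and Abcb1a were not called. Of the 9 genes, 6 rose, where 22.7% of all genes tested rose, and none fell, where 17.3% did. The same 6 genes had no Vehicle mouse at or below any Sham mouse, which held for 20.7% of all genes. The median log2 fold change was 0.98 over the 9 genes and 3.54e-05 over all genes tested. Each gene is plotted by mouse.

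**Figure D1:**
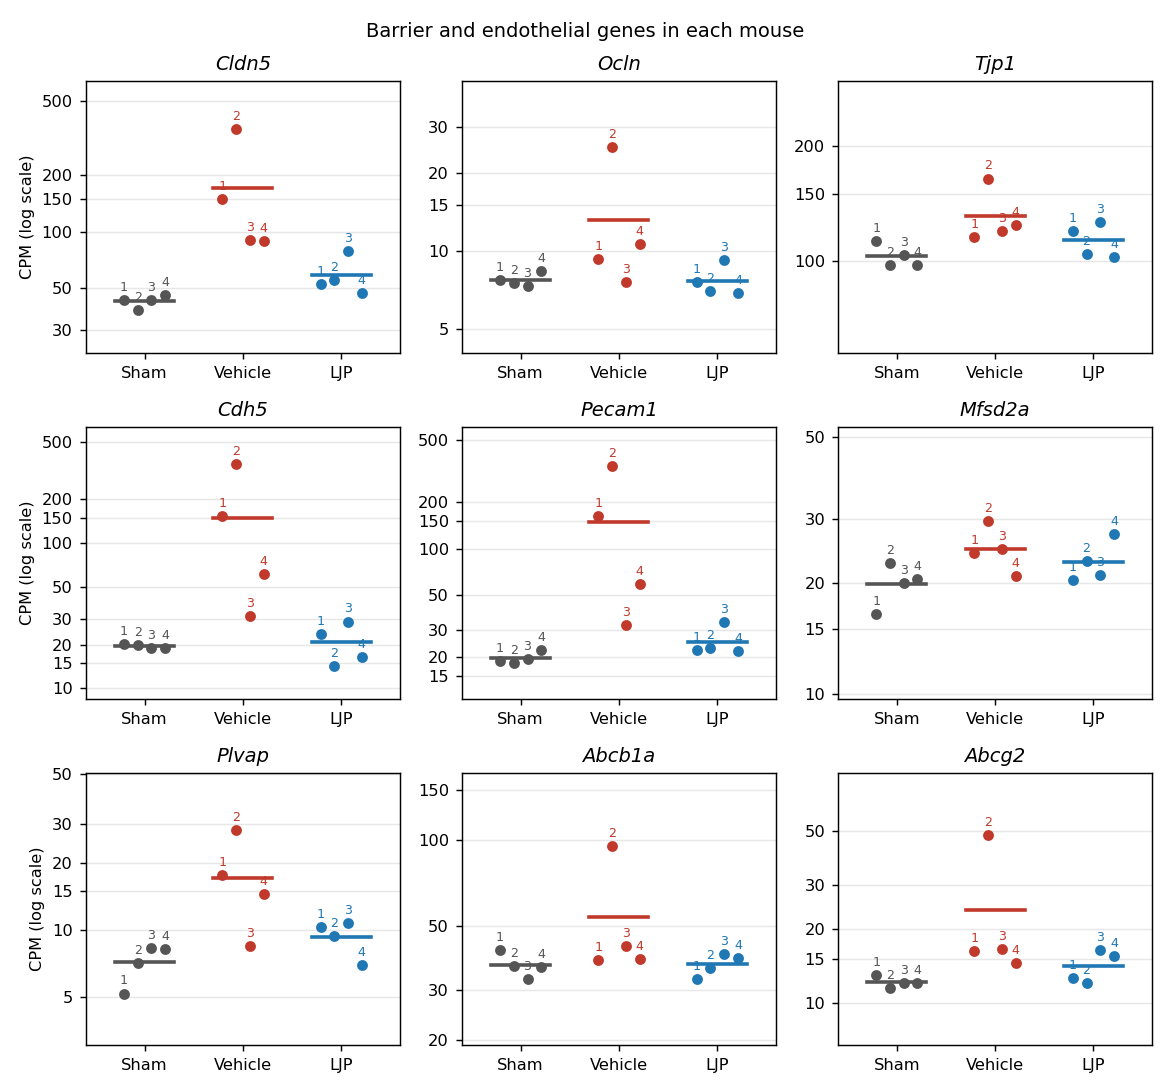
The 9 genes in each mouse. The y axes are CPM on a log scale and differ between panels, points are single mice with their replicate number, and bars are group means of 4 mice. Vehicle mouse 2 is the highest of the 12 mice in every panel, and the Vehicle mice lie above the Sham mice in 6 of the 9.

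Cldn5 (claudin-5; Entrez Gene 12741, chromosome 16 from 18776847 to 18778262 of GRCm38, plus strand) forms the strands of the tight junction of brain endothelium. It lay at 43.1, 38.2, 43.3 and 46.0 CPM in mice 1 to 4 of the Sham group, at 150, 353, 89.7 and 89.0 CPM in mice 1 to 4 of the Vehicle group and at 52.5, 55.3, 79.0 and 47.2 CPM in mice 1 to 4 of the LJP group, an order kept for the genes that follow. Every Vehicle mouse was above every other mouse, and every LJP mouse was above every Sham mouse. Cldn5 rose in the Vehicle group by 2.00 ± 0.38 (SE) on the log2 scale (edgeR adjusted p = 0.00197). Ocln (occludin, chromosome 13 from 100496504 to 100552718), another membrane protein of the tight junction, had 7.73, 7.52, 7.34 and 8.34 CPM (Sham), 9.30, 25.0, 7.59 and 10.7 CPM (Vehicle) and 7.58, 7.004, 9.19 and 6.86 CPM (LJP). Vehicle mouse 2 stood far above the rest, and Vehicle mouse 3 lay among the Sham mice. Its log2 fold change of 0.77 ± 0.30 (SE) was not called (edgeR adjusted p = 0.0602).

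Tjp1 (ZO-1, chromosome 7 from 65296165 to 65527850) is the scaffold that ties tight junction proteins to the cytoskeleton, and cells other than endothelium also make it. It lay at 113, 97.9, 104 and 97.5 CPM (Sham), 116, 165, 120 and 124 CPM (Vehicle) and 120, 105, 126 and 103 CPM (LJP). The Vehicle and Sham mice did not overlap, although Vehicle mouse 1 and Sham mouse 1 were close. Tjp1 rose by 0.35 ± 0.11 (SE) on the log2 scale (edgeR adjusted p = 0.0291), and the call was lost without Sham mouse 2 (adjusted p = 0.0777), Sham mouse 3 (0.0583), Sham mouse 4 (0.0770), Vehicle mouse 2 (0.0662) or Vehicle mice 1 and 2 (0.0523).

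Cdh5 (VE-cadherin, chromosome 8 from 104101613 to 104144504) holds endothelial cells together at adherens junctions in vessels of all organs. Its levels were 20.2, 19.7, 19.02 and 19.1 CPM (Sham), 153, 351, 31.3 and 61.6 CPM (Vehicle) and 23.6, 14.3, 28.8 and 16.4 CPM (LJP). The Sham mice were nearly equal, the Vehicle mice spread widely, and the LJP mice lay on both sides of the Sham mice. Cdh5 rose by 2.94 ± 0.58 (SE) on the log2 scale (edgeR adjusted p = 0.00243). Pecam1 (CD31, chromosome 11 from 106654213 to 106715281), an adhesion molecule of endothelium, platelets and leukocytes, lay at 18.8, 18.1, 19.3 and 22.3 CPM (Sham), 161, 339, 32.1 and 59.3 CPM (Vehicle) and 22.0, 22.6, 33.7 and 22.0 CPM (LJP). Its Vehicle mice ranked as those of Cdh5 did, and LJP mouse 3 reached above Vehicle mouse 3. Pecam1 rose by 2.91 ± 0.56 (SE) on the log2 scale (edgeR adjusted p = 0.00216).

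Mfsd2a (chromosome 4 from 122946850 to 122961194) carries lysophospholipids with omega-3 fatty acids into the brain and keeps transcytosis low. It lay at 16.5, 22.7, 20.1 and 20.6 CPM (Sham), 24.1, 29.6, 24.8 and 21.0 CPM (Vehicle) and 20.5, 23.0, 21.0 and 27.2 CPM (LJP). The 3 groups overlapped, and the log2 fold change between Vehicle and Sham was 0.32 (95% interval 0.028 to 0.61, edgeR adjusted p = 0.0750). Plvap (chromosome 8 from 71497753 to 71511806) forms the diaphragms of fenestrae and caveolae, and is sparse in healthy brain capillaries. Its levels were 5.19, 7.14, 8.27 and 8.19 CPM (Sham), 17.6, 28.2, 8.45 and 14.5 CPM (Vehicle) and 10.3, 9.36, 10.7 and 6.97 CPM (LJP). Vehicle mouse 3 was only just above the highest Sham mouse. Plvap rose by 1.26 ± 0.30 (SE) on the log2 scale (edgeR adjusted p = 0.00633).

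Abcb1a (chromosome 5 from 8567091 to 8748575) encodes P-glycoprotein, the pump that returns many drugs to the blood. It lay at 41.3, 36.2, 32.7 and 36.0 CPM (Sham), 38.0, 95.8, 42.8 and 38.4 CPM (Vehicle) and 32.7, 35.7, 40.1 and 38.8 CPM (LJP). Apart from Vehicle mouse 2 the groups overlapped, and the log2 fold change of 0.56 ± 0.25 (SE) was not called (edgeR adjusted p = 0.0931). Abcg2 (breast cancer resistance protein, chromosome 6 from 58584491 to 58692451), the other main drug pump of the barrier, lay at 12.9, 11.4, 12.0 and 12.0 CPM (Sham), 16.2, 47.8, 16.5 and 14.5 CPM (Vehicle) and 12.6, 12.0, 16.3 and 15.5 CPM (LJP). Every Vehicle mouse was above every Sham mouse, with mouse 2 far above the others. Abcg2 rose by 0.98 ± 0.32 (SE) on the log2 scale (edgeR adjusted p = 0.0303), and its value was 0.37 without Vehicle mouse 2 (adjusted p = 0.0327) and 0.35 without Vehicle mice 1 and 2 (0.0636). Its call was also lost without any 1 of the 4 Sham mice (0.0594 to 0.0704).

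Vehicle mouse 2 was the highest mouse for all 9 genes, and Vehicle mouse 1 was the next highest for Cldn5, Cdh5, Pecam1 and Plvap but not for the other 5. Cdh5 was 7.82 and 18.0 times its Sham mean in Vehicle mice 1 and 2 and 1.61 and 3.16 times in Vehicle mice 3 and 4. Without mice 1 and 2, a choice made after seeing the data, 4 of the 9 genes were called higher, where 15.7% of all genes then were: Cldn5 by 1.06 on the log2 scale (edgeR adjusted p = 9.03e-05), Cdh5 by 1.25 (0.00137), Pecam1 by 1.21 (0.000452) and Plvap by 0.66 (0.0396). The others then had values of 0.24 for Tjp1, 0.35 for Abcg2, 0.23 for Ocln, 0.19 for Mfsd2a and 0.15 for Abcb1a. Without Vehicle mouse 2 alone the log2 fold change was 1.36 for Cldn5, 2.07 for Cdh5, 2.10 for Pecam1 and 0.90 for Plvap. All 4 of these values were smaller than with the 4 Vehicle mice.

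**Figure D2:**
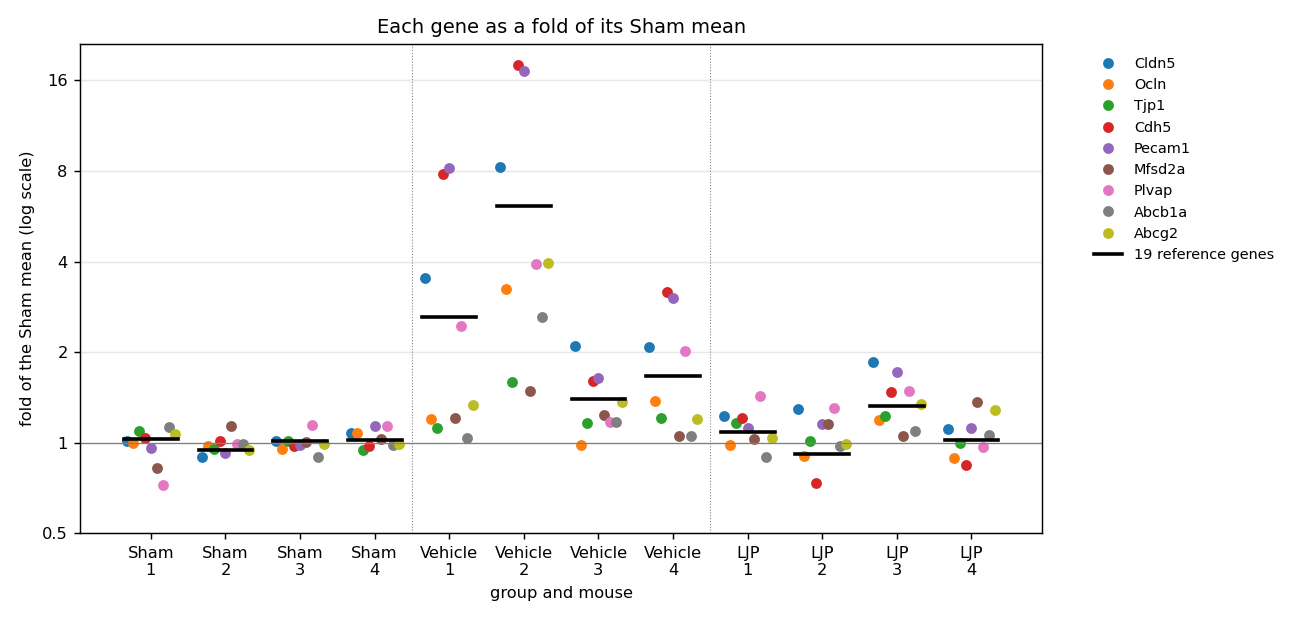
Each gene as a fold of its Sham mean. The x axis holds the 12 mice, the y axis is the fold on a log scale, points are the 9 genes, and black bars are the mean of 19 endothelial reference genes, which reach 6.14 in Vehicle mouse 2 and 1.40 in Vehicle mouse 3. Cdh5 and Pecam1 lie above the bar in each Vehicle mouse, and Tjp1, Mfsd2a, Abcb1a, Abcg2 and Ocln below it.

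RNA of other cell types also differed between these mice. Between Vehicle and Sham 22.7% of all genes rose and 17.3% fell, the shares beside which the counts below stand. The summed level of 12 fibroblast and meningeal genes was 355 to 384 CPM in the Sham mice, 641 to 3069 in the Vehicle mice, with the highest in mouse 2, and 434 to 624 in the LJP mice, and 11 of the 12 rose in the Vehicle group. All 9 perivascular macrophage genes rose, from 37.7 to 39.2 CPM summed in the Sham mice to 228.5 to 552 in the Vehicle mice, against 96.6 to 265 in the LJP mice, and so did 5 of 5 red blood cell genes tested, from 3.9 to 6.0 CPM to between 9.8 and 89.6, with the highest in mouse 1, against 5.5 to 9.0 in the LJP mice. Of 10 pericyte genes 4 rose (221 to 242 CPM in the Sham mice, 220 to 432 in the Vehicle mice, 214 to 274 in the LJP mice), and of 8 neuronal genes 4 fell (5356 to 5905, 2911.5 to 4744 and 4690 to 5544 CPM). Of 8 astrocyte genes 2 rose and 1 fell, not far from the shares of all genes (3681 to 4177 CPM in the Sham mice, 2231 to 3570 in the Vehicle mice, 3327 to 3636 in the LJP mice). No gene of these 6 lists was at 0 in every mouse of a group. The part of these cells in the values of the 9 genes was not tested.

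The 10 choroid plexus genes varied widely within each group: they summed to 399 to 932 CPM in Sham mice 2, 3 and 4, Vehicle mice 3 and 4 and LJP mouse 3, and to 22.6 to 33.0 CPM in the other 6 mice. None of the 10 was called between any 2 groups. Between LJP and Sham all 10 had log2 fold changes below 0, at a median of -1.84. Of these, 5 had an unadjusted edgeR p below 0.05, where 7.29% of all genes were lower at that p. The mice low in the choroid plexus genes were Sham mouse 1, Vehicle mice 1 and 2 and LJP mice 1, 2 and 4. With the mean log2 level of these genes as a term of the fit, added after seeing the data, Cldn5 (log2 fold change 1.79, edgeR adjusted p = 0.00815), Cdh5 (2.46, 0.0134), Pecam1 (2.44, 0.0127) and Plvap (1.17, 0.0224) were still called higher, where 18.6% of all genes were, and Tjp1 (0.32, 0.0598) and Abcg2 (0.80, 0.0893) were not. The lung transcripts Scgb1a1, Scgb3a2, Sftpa1, Sftpd and Cldn18 had 0 counts in all LJP mice, where the 9 lung genes summed to 1.7 to 2.8 CPM, against 10.7 to 14.9 in the Sham and 11.8 to 16.7 in the Vehicle mice.

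LJP was compared with Vehicle to ask whether treatment moved these genes after ischemia. All 9 had log2 fold changes below 0, and none passed the adjusted p of 0.05, a threshold that 0.0228% of all genes passed in the lower direction. At an unadjusted p below 0.05, 7 of the 9 were lower, against 17.4% of all genes. The median log2 fold change was -0.78 over the 9 genes and -0.0017 over all genes tested. Both this comparison and that of Vehicle with Sham use the same Vehicle mice.

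The largest differences were again in Cdh5 (log2 fold change -2.84 ± 0.58, SE), Pecam1 (-2.56 ± 0.55) and Cldn5 (-1.54 ± 0.37), with 0.0678 as the edgeR adjusted p of all 3. Cldn5 and Cdh5 had no LJP mouse at or above any Vehicle mouse, which held for 5.91% of all genes, and Pecam1 overlapped through LJP mouse 3. Cdh5, Pecam1 and Cldn5 also passed the thresholds of the study's methods, a log2 fold change beyond 0.58 at an unadjusted p below 0.01, applied here to edgeR's values in the lower direction, as did 5.89% of all genes. With DESeq2's values Plvap passed them as well (unadjusted p = 0.00345). DESeq2 called 4 of the 9 lower, Cdh5 (adjusted p = 0.000766), Cldn5 (0.00182), Pecam1 (0.00196) and Plvap (0.0343), where it called 9.48% of the genes it tested lower. Plvap, at a log2 fold change of -0.88, had an edgeR adjusted p of 0.0900.

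The other genes of the tight junction and the pumps had smaller values, all of them not called by either tool. Ocln differed by -0.78 on the log2 scale (95% interval -1.44 to -0.13, edgeR adjusted p = 0.119) and Tjp1 by -0.21 (-0.45 to 0.039, 0.232). Abcg2 had -0.76 (-1.45 to -0.060, 0.143) and Abcb1a -0.55 (-1.09 to -0.0022, 0.167). Mfsd2a differed least, at -0.12 (-0.41 to 0.17, 0.561).

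The size of these differences and the calls varied with the Vehicle mice included. Without Vehicle mouse 2 none was called, where 0.0282% of all genes were called lower, and the log2 fold change was -1.98 for Cdh5, -1.75 for Pecam1, -0.91 for Cldn5, -0.53 for Plvap, -0.26 for Ocln, -0.16 for Abcg2, -0.11 for Abcb1a, -0.078 for Tjp1 and -0.024 for Mfsd2a. Without Vehicle mouse 3, 5 genes were called lower, where 13.1% of all genes then were: Cdh5 (log2 fold change -3.17, edgeR adjusted p = 0.00820), Pecam1 (-2.89, 0.00824), Cldn5 (-1.75, 0.0121), Plvap (-1.10, 0.0134) and Ocln (-0.96, 0.0330). Without Vehicle mouse 4, Cldn5, Cdh5 and Pecam1 were called (0.0310 each), where 8.38% of all genes were called lower. Without Vehicle mice 1 and 2 none was called, against 0.0443% of all genes, and the log2 fold change was -1.16 for Cdh5, -0.87 for Pecam1, -0.61 for Cldn5, -0.30 for Plvap, -0.26 for Ocln, -0.14 for both Abcg2 and Abcb1a, -0.10 for Tjp1 and 0.00074 for Mfsd2a.

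LJP was compared with Sham to ask what was left of the response under treatment. None of the 9 genes was called, where 4.75% of all genes were. Cldn5 was the only one whose groups did not overlap, higher in the LJP group at a log2 fold change of 0.46 (95% interval -0.34 to 1.25, edgeR adjusted p = 0.558), and 12.9% of all genes had no overlap in that direction. In a fit without Vehicle mice 1 and 2, whose spread also enters this comparison, Cldn5 was called (0.45, edgeR adjusted p = 0.0164), as were 24.3% of all genes in that fit, so that the 1 of 9 genes lay below the share of all genes. The intervals of the others spanned 0, and they were wide for Cdh5 (0.093, -1.12 to 1.30) and Pecam1 (0.35, -0.81 to 1.52) and narrow for Tjp1 (0.14, -0.11 to 0.39) and Mfsd2a (0.20, -0.091 to 0.49). Plvap had 0.37 (-0.28 to 1.03), Abcg2 0.22 (-0.49 to 0.92), Abcb1a 0.012 (-0.53 to 0.56) and Ocln -0.014 (-0.68 to 0.65). These intervals do not show that LJP and Sham mice were alike.

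The genes did not move by the same factor, so they were also measured against the mean of other endothelial genes. Each library was scaled to 19 other endothelial genes, which lay at 2.62, 6.14, 1.40 and 1.67 times the Sham mean in Vehicle mice 1 to 4 and at 1.08, 0.920, 1.33 and 1.02 times in LJP mice 1 to 4. A value on this scale is a difference from the mean of those genes, which did not move together. With TMM scaling they spanned log2 fold changes of 0.59 (Flt1) to 2.91 (Emcn) between Vehicle and Sham. Cdh5 had 2.94 and Pecam1 2.91 there. Between LJP and Vehicle Emcn had -2.92, against -2.84 for Cdh5 and -2.56 for Pecam1. A rise relative to the mean is therefore not a rise beyond each endothelial gene. On the reference scale the median of all genes tested was -1.12 between Vehicle and Sham and 1.02 between LJP and Vehicle in log2 units, so that most brain genes count as changed. The test also drew the spread of each gene more strongly toward that of all genes (33.5 degrees of freedom against 12.6 with TMM scaling).

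Relative to the reference genes, Cdh5 and Pecam1 rose in the Vehicle group, each by 1.16 ± 0.36 (SE) on the log2 scale (edgeR adjusted p = 0.0106), where 3.29% of all genes rose. Without Vehicle mice 1 and 2 the values were 0.60 for Cdh5 and 0.58 for Pecam1, both still called (edgeR adjusted p = 0.00150 and 0.00219). Cldn5 had 0.45 ± 0.34 and was not called (edgeR adjusted p = 0.228), although its relative levels of 1.34, 1.35, 1.50 and 1.25 in the Vehicle mice were all above those of the Sham mice, 0.949 to 1.06. Its SE here does not measure the spread of Cldn5 alone. Without Vehicle mice 1 and 2 the value of Cldn5 was 0.46 and was called (edgeR adjusted p = 0.0114), where 5.49% of all genes rose. With Cldn5, 3 genes had no overlap in the higher direction, against 2.85% of all genes. Plvap had -0.15 (edgeR adjusted p = 0.685). Mfsd2a (-0.86, 0.0390) and Abcb1a (-0.81, 0.0401) fell relative to the reference genes, but 67.7% of all genes did, and neither stood lower than the median of all genes. The call of Abcb1a was lost without any 1 mouse other than Vehicle mouse 2 or 3 (edgeR adjusted p up to 0.137), and that of Mfsd2a without Sham mouse 2, 3 or 4, Vehicle mouse 1 or LJP mouse 1 or 4 (up to 0.107). Without Vehicle mice 1 and 2 Mfsd2a had -0.41 and Abcb1a -0.45, both called (0.0429 and 0.0182), but 59.7% of all genes were called lower in that fit, at a median of -0.61 over all genes. Tjp1 (-0.84, 0.0533), Ocln (-0.67, 0.0698) and Abcg2 (-0.49, 0.168) were not called. In the lower direction 4 genes, Ocln, Tjp1, Abcb1a and Abcg2, had no overlap, against 69% of all genes.

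**Figure D3:**
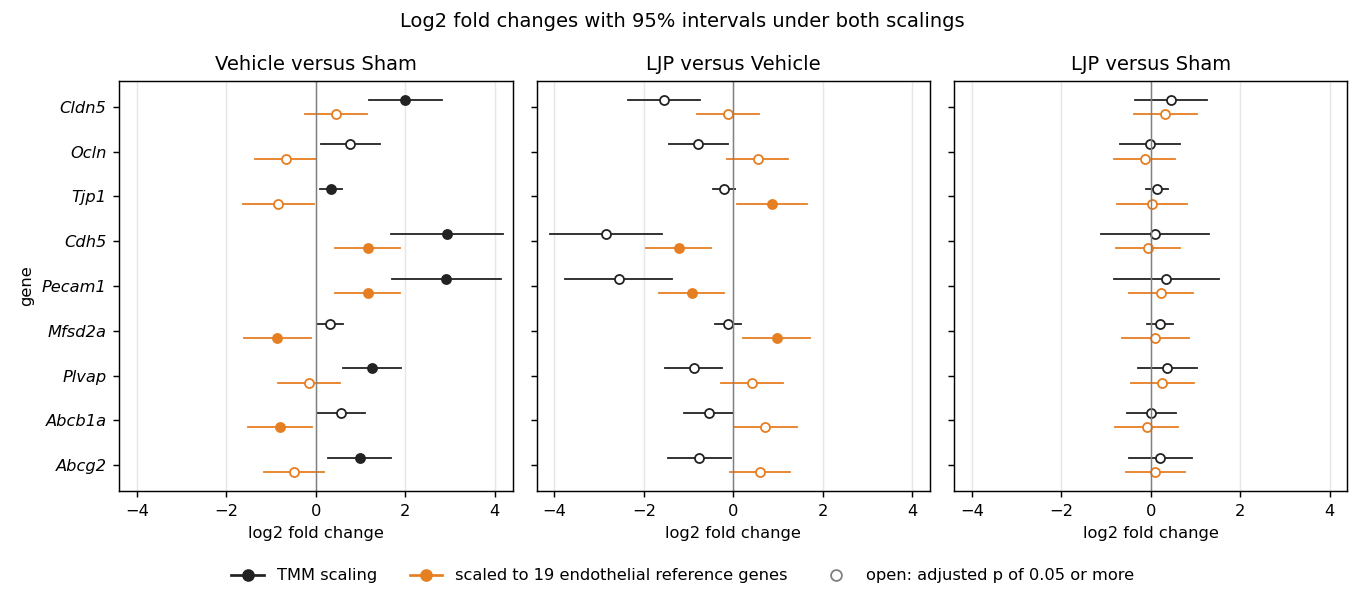
Log2 fold changes of the 9 genes in the 3 comparisons. Points are estimates and lines 95% intervals, in black with TMM scaling and in orange scaled to 19 endothelial reference genes, filled where the adjusted p was below 0.05. Cdh5 and Pecam1 are filled and above 0 under both scalings between Vehicle and Sham, while no point is filled between LJP and Sham.

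Between LJP and Vehicle, Cdh5 fell by 1.22 ± 0.36 (SE, edgeR adjusted p = 0.0345) and Pecam1 by 0.93 ± 0.35 (0.0351) relative to the reference genes, where 0.558% of all genes fell. Cldn5 had -0.12 (95% interval -0.81 to 0.58). Mfsd2a (0.97, edgeR adjusted p = 0.0352) and Tjp1 (0.87, 0.0497) were higher on this scale, as were 65.3% of all genes. Without any 1 mouse the values spanned -1.44 to -1.05 for Cdh5, -1.15 to -0.73 for Pecam1, 0.72 to 1.29 for Mfsd2a and 0.63 to 1.12 for Tjp1. Without Vehicle mouse 1 or LJP mouse 1, 2 or 4 at most 0.0112% of all genes were called higher. All 4 calls were lost without some single mice. That of Tjp1 was lost without any 1 mouse other than Vehicle mouse 2, 3 or 4 (edgeR adjusted p up to 0.136). That of Mfsd2a was lost without Vehicle mouse 1 (0.101) or LJP mouse 1, 2 or 4 (0.0660, 0.0974 and 0.0831). That of Cdh5 was lost without Vehicle mouse 1 (edgeR adjusted p = 0.101) and without LJP mouse 1 (0.0660), 2 (0.0968) or 4 (0.0775). That of Pecam1 was lost without the same mice (0.111, 0.0758, 0.0968 and 0.0784) and without Sham mouse 3 (0.0501). With summed counts of the reference genes as the scale, the adjusted p was 0.0649 for both, and in a fit of only the LJP and Vehicle groups it was 0.0896 for Cdh5 and 0.103 for Pecam1. Without Vehicle mice 1 and 2, where 0.531% of all genes fell, Cdh5 had -0.66 (edgeR adjusted p = 0.00269) and Pecam1 -0.35 (0.0692). Between LJP and Sham none of the 9 was called relative to the reference genes, where 2.12% of all genes were.

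Ratios within a mouse need no scaling, but since Cdh5 rose most of the 9 genes, ratios to it carry its own rise. Counts of Pecam1 per count of Cdh5 were 0.920 to 1.17 in the Sham mice, 0.963 to 1.06 in the Vehicle mice and 0.933 to 1.58 in the LJP mice, so that all Vehicle mice lay within the Sham range. Counts of Cldn5 per count of Cdh5 were 1.94 to 2.41 in the Sham mice, 0.984, 1.01, 2.86 and 1.44 in Vehicle mice 1 to 4, and 2.22 to 3.86 in the LJP mice. The ratio was lowest in Vehicle mice 1 and 2, while Vehicle mouse 3 lay above the Sham mice. Counts of Abcb1a per count of Cdh5 were 1.72 to 2.05 in the Sham mice, 0.249, 0.273, 1.37 and 0.623 in Vehicle mice 1 to 4, and 1.39 to 2.50 in the LJP mice. Counts of Plvap per count of Cdh5 were 0.257 to 0.435 in the Sham mice, 0.115, 0.0803, 0.270 and 0.235 in Vehicle mice 1 to 4, and 0.372 to 0.654 in the LJP mice, again lowest in Vehicle mice 1 and 2.

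Profiles over the 12 mice were close for some pairs of the 9 genes only. The root mean square difference between centered log2 CPM profiles was 0.18 for Abcb1a with Abcg2, 0.20 for Ocln with Abcb1a and 0.20 for Ocln with Abcg2, and 0.23 for both Tjp1 with Mfsd2a and Cdh5 with Pecam1. Cldn5 and Plvap had no member closer than 0.40 and 0.34. The most unlike pair was Cdh5 with Mfsd2a, at 1.27. Of all other genes tested, the profiles closest to Plvap were those of Cdc42ep4 (0.168), Mtbp (0.169) and Galk1 (0.182), where the profile of Plvap itself varied by 0.628 around its mean. Closest to Mfsd2a were Gstt1 (0.0852), Unc119b (0.109) and Tob2 (0.119), at an own variation of 0.212, and closest to Cldn5 were Itpr3 (0.131), Cavin1 (0.138) and Stra6 (0.148), at 0.896. These profiles share libraries and depth, and the likeness is a description over 12 mice.

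Lists of related genes, with the 9 left out, are given beside these values, and their counts are to be read against the 22.7% of all genes that rose and the 17.3% that fell. The lists were chosen with earlier results of these data known, so these counts are a description and not a test. Between Vehicle and Sham, 18 of 19 endothelial reference genes rose and none fell, at a median log2 fold change of 1.77, among them Emcn (2.91) and Clec14a (2.62), surface glycoproteins of endothelium, and the TGF-beta co-receptor Eng (1.77). Of 15 tested genes of activated and venous endothelium 14 rose, at a median of 3.64, with Lcn2 (7.15), which astrocytes and neutrophils also make, the oxysterol enzyme Ch25h (4.43) and the clotting protein Vwf (3.64). Of 16 genes of transcytosis and caveolae 13 rose and 1 fell, at a median of 0.84, with the membrane linker Msn (3.42), the scavenger receptor Stab1 (3.12) and the caveola coat gene Cavin3 (1.60). Stab1 and Msn are also expressed by macrophages.

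The remaining lists cover junctions, transport and Wnt signals, and differences between lists were not tested. Of 22 other junction protein genes 7 rose and 3 fell, not far from the shares of all genes, at a median of 0.19: Nectin2 (1.48) rose, and the scaffold gene Magi3 (-0.53) fell. Of 24 barrier transporters 10 rose and 1 fell, at a median of 0.22, among them Slco2b1 (1.25), which carries organic anions, the amino acid transporter subunit Slc3a2 (1.02) and the lactate transporter Slc16a1 (0.81). Of 23 genes of the Wnt barrier programme 9 rose and none fell, at a median of 0.37, with the Wnt co-receptor Lrp5 (1.55), the forkhead factor Foxf2 (1.24) and the nuclear receptor Ppard (0.76).

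Between LJP and Vehicle no gene of these 6 lists was called by edgeR. The median was -1.52 for the reference genes, all 19 of them below 0, and -2.0 for activated and venous endothelium, -0.63 for transcytosis and caveolae, -0.32 for junction proteins, -0.26 for transporters and -0.22 for the Wnt programme. By p-value, leading genes of the lists were Emcn (-2.92), Mmrn2 (-2.34), Angpt2 (-4.53), Cd93 (-3.10), Ehd2 (-1.88), Cavin1 (-1.74), Cgnl1 (-1.51), Slc3a2 (-0.68), Abcc1 (-0.56), Adgra2 (-1.71) and Lrp5 (-0.91), all at an edgeR adjusted p of 0.0678. Emcn, Angpt2 and Cd93 overlapped between the groups, and the others named here did not. Between LJP and Sham 3 of 15 genes of activated and venous endothelium, 3 of 16 of transcytosis and caveolae and 1 of 24 transporters were called, all higher, where 3.85% of all genes were, and none of the reference, junction or Wnt genes.

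**Figure D4:**
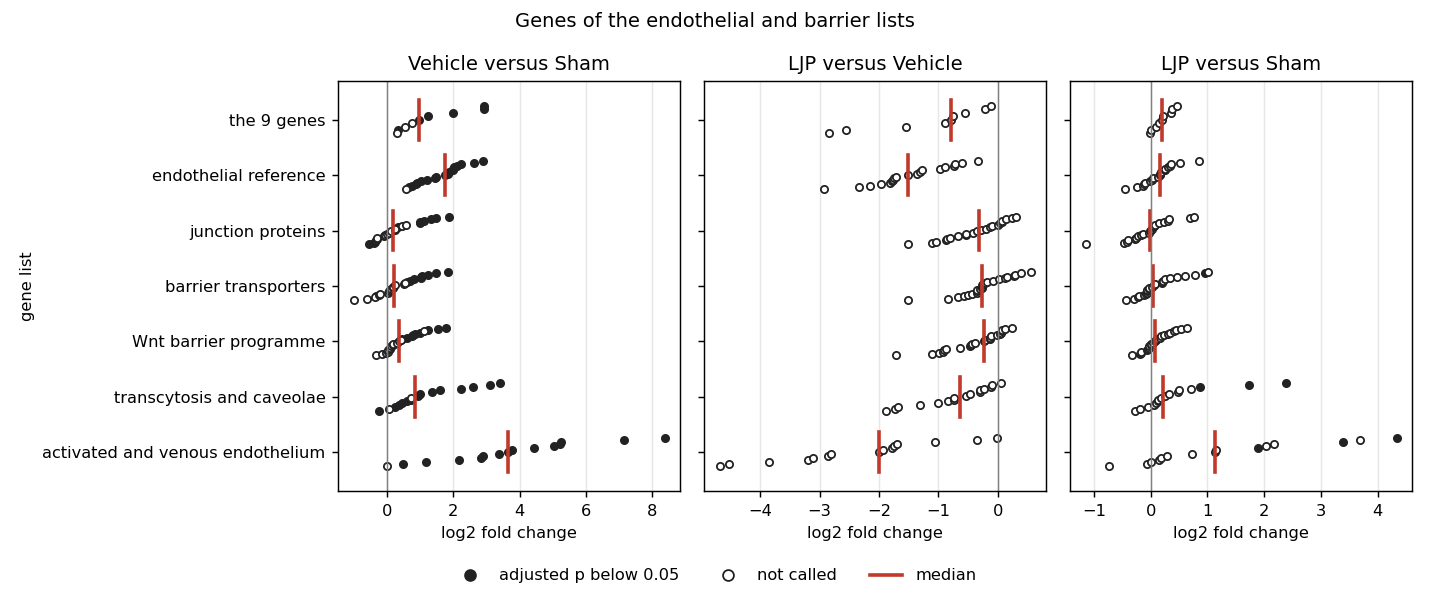
Log2 fold changes of single genes in the 9-gene set and the 6 related lists, in the 3 comparisons with TMM scaling. Each point is a gene, filled where the adjusted p was below 0.05, red bars are list medians, and the x axes differ in range. Between Vehicle and Sham the median is 0.98 for the 9 genes and 3.64 for activated and venous endothelium, and between LJP and Vehicle no point is filled.

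Reads of some of these genes may be shared with other genes, and the strand setting of the count is not given in the sources used here. Plvap overlaps Gtpbp3, on the other strand, which had 7093 counts over the 12 mice against 2731 for Plvap, and Gm46041, with 118 counts. Abcb1a, with 10099 counts, overlaps Rundc3b, on the other strand, with 7983 counts, and has the near copy Abcb1b, with 1540 counts. Genes overlapping Cdh5 and Ocln had 9 and 3 counts. Cldn5, Tjp1, Pecam1, Mfsd2a and Abcg2 overlapped no other gene of the table.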

How the data were processed

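Poly(A) RNA of ischemic hemispheres was sequenced as paired-end reads. The authors deposited raw read counts per gene and mouse, without normalization. The submitters' processing notes name featureCounts and DESeq2 and the builds mm10 and GRCm39, without roles, and gene positions in the table match GRCm38. The aligner and the handling of shared reads are not given in the sources used here. The table held 0 columns of other samples, and 30210 of its 39756 genes had a count.

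The analysis used edgeR 4.0.16 in R 4.3.3. Its filterByExpr kept 17558 genes, and 1 coefficient per group was fitted. Depth was 17960353 to 22216315 counts per mouse, and standard errors and intervals come from the fit. Alternatives were DESeq2 1.42.0, RLE or library size scaling, no filter, 2-group fits, the replicate number as a block, the study's thresholds, summed reference counts, and leaving out each mouse. The test was checked on simulated data. Plots used matplotlib 3.10.9. Mice of a group differed by more than sampling noise (smallest chi-square per degree of freedom 2.48).

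The 9 genes and all lists were chosen with earlier results of these data known. The text names the 9 genes, the 3 and 2 genes with the smallest p-values per endothelial or barrier list in Vehicle versus Sham and LJP versus Vehicle, genes of other cell types where a result touches them, and the 3 closest profiles of Plvap, Mfsd2a and Cldn5. A gene that this rule selects is not reported here.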

Additional observations from a re-analysis of the deposited data

Results flagged for a closer look

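In 30 groups of 4 mice, for the 9 genes and the endothelial reference genes in each treatment group, the gap of the most extreme mouse to its nearest neighbor was divided by the range of the group. In 4 groups this share was above Dixon's 95% critical value, where chance gives about 1.5 of 30. Vehicle mouse 2 was high for Abcg2 (0.942) and Abcb1a (0.918), and LJP mouse 3 was high for Pecam1 (0.941). Sham mouse 2 was low for the endothelial reference genes (0.841), within a narrow range of 0.944 to 1.03 times the Sham mean. No cause of these gaps was tested.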

How the results depend on the processing

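Under TMM scaling, the count of 6 genes higher in Vehicle than in Sham ranged from 4 to 8 over all alternatives, where 13.1% to 27% of all genes were called higher, and leaving out 1 mouse at a time gave 4 to 8, with 18.2% to 25.3%. The count of 0 between LJP and Vehicle was 4 with DESeq2, 3 without a low-count filter, 3 at the study's thresholds on edgeR's values and 0 to 5 without 1 mouse, while the share of all genes called lower was 9.48%, 1.8%, 5.89% and 0.0167% to 13.1%. The count of 0 between LJP and Sham was 1 in the fit of only those groups and 1 without Vehicle mice 1 and 2, where 23.8% and 24.3% of all genes were called, and 0 without any single mouse.

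Relative to the endothelial reference, the count of 4 (2 higher and 2 lower) between Vehicle and Sham was 2 with summed reference counts, 2 with no filter, 2 in the 2-group fit, 2 with the choroid plexus term and 2 to 7 without 1 mouse, while the share of all genes called lower was 57%, 39.7%, 48%, 63.5% and 36.5% to 77.5%. The share called higher was 4.32%, 2.12%, 2.51%, 3.47% and 2.74% to 4.69% in the same settings. The count of 4 (2 higher and 2 lower) between LJP and Vehicle was 0 with summed counts, 0 in the 2-group fit and 0 to 6 without 1 mouse (0 without Vehicle mouse 1 or LJP mouse 1, 2 or 4, and 6 without Vehicle mouse 2 or 3), and the share of all genes called higher ranged with it from 0% to 81.4%. The share called lower ranged from 0.0449% to 0.839%.

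With the replicate number as a block, 4 genes were called higher in Vehicle than in Sham, where 19.7% of all genes were (Tjp1 with an edgeR adjusted p of 0.0562 and Abcg2 with 0.0723 lost their call), and relative to the reference 2 higher between Vehicle and Sham (2.69% of all genes) and 1 lower between LJP and Vehicle (0.376% of all genes), Cdh5, with Pecam1 at an adjusted p of 0.0807, Tjp1 at 0.0871 and Mfsd2a at 0.0509. Same-numbered mice of different groups had correlations of -0.32 to 0.11 over 12 pairs, so the numbers do not pair the mice.

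Values that changed sign were small and not called in either setting. Between LJP and Sham, Ocln was 0.040 with library size only and 0.0025 with no filter and spanned -0.11 to 0.034 without 1 mouse, Cdh5 was -0.31 with the choroid plexus term and spanned -0.10 to 0.23, Pecam1 was -0.052 with that term, and Abcb1a was -0.17 with it and spanned -0.034 to 0.080. Between LJP and Vehicle, Mfsd2a was 0.00074 without Vehicle mice 1 and 2. Relative to the reference, Plvap between Vehicle and Sham was 0.068 with summed counts and 0.033 without Vehicle mice 1 and 2, and between LJP and Sham Ocln was 0.029 and Abcb1a 0.026 with the choroid plexus term, while Tjp1 spanned -0.012 to 0.073, Cdh5 -0.14 to 0.025 and Mfsd2a -0.0092 to 0.23 without 1 mouse. The cause of these changes was not tested. With 4 mice a group, the wide spread of the Vehicle mice limits every comparison with them.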
